A study of Mus musculus with 6 samples.

Results

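The Bcl2 family decides at the mitochondrion whether a stressed cell lives, and 10 of its genes were followed here in mouse embryonic fibroblasts (MEFs) after treatment with TNFα. MEFs are connective tissue cells grown from embryos, and TNFα is an inflammatory cytokine that activates the transcription factor NF-κB and can also start a death signal at its receptor. The 10 genes were chosen by name from a table of RefSeq transcripts, with the transcript of the highest mean value kept for each gene, and make up 10 of 20275 coding genes in the table. They are Bcl2, Bcl2l1, Mcl1, Bax, Bak1, Bad, Bid, Bbc3, Pmaip1 and Bcl2l11.

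Members of the family fall into 3 groups by role. The survival members Bcl2, Bcl2l1 (Bcl-xL) and Mcl1 hold the death-promoting members in check, while the effectors Bax and Bak1 form pores in the outer mitochondrial membrane that release cytochrome c. The BH3-only members Bad, Bid, Bbc3 (Puma), Pmaip1 (Noxa) and Bcl2l11 (Bim) share a short helix with which they occupy the survival members or activate the effectors. Bid links both routes to cell death, since caspase-8, activated below death receptors, cuts it into its active form, and these steps act on proteins, which were not measured here.

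The study asked which transcripts respond to TNFα. Poly(A)-selected, strand-specific RNA was sequenced from primary wildtype MEFs of strain C57BL/6x 129, taken from littermate embryos of 13.5 days and passaged 4 times, either untreated or exposed to TNFα at 20 ng/ml for 1.5, 6 or 24 hr. All 4 groups share this genotype and passage, and each was 1 library, so no test across replicates could be made. H3K4me3, a histone mark of active promoters, was profiled in untreated MEFs with 1 ChIP library and 1 input library. The 24 hr sample has a chromatin protocol among its labels, yet every other label describes an RNA library, and it was used as such.

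Levels are given in RPKM (reads scaled to transcript length and to the depth of the library) as deposited, on a scale particular to this table, so that they serve for comparison within it. Each library has 2 columns, R1 and R2. What they hold is not stated, and they were averaged and are given only as the spread within a library. The columns correlated with a Pearson r of 0.991 to 0.995 across genes on a log2 scale, which does not measure the spread between cultures.

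The libraries differed as a whole. Relative to the untreated library, the values summed to 1.19 at 1.5 hr, to 0.563 in the 6 hr library and to 0.964 after 24 hr. Of 11912 coding genes whose mean share exceeded 1 in 1000000 of the table, 85.9% were below the untreated library at 6 hr, and the median log2 ratio over these genes was 0.50, -0.73 and 0.14 at the 3 times. The ratio also moved with GC content, from a median of 1.09 in 3892 coding genes lowest in GC to -0.29 in the 3892 highest at 1.5 hr, and from 0.67 to -0.56 at 24 hr. At 6 hr these medians were -0.38 and -0.93. Log2 ratios of the members below are therefore given as deposited, relative to the median of coding genes (median-scaled) and relative to genes of like GC content (GC-centred). All 5 TNFα targets used as a check, Nfkbia, Tnfaip3, Icam1, Ccl2 and Cxcl10, were at least 2-fold higher at all 3 times. The 10 fibroblast markers examined, among them Col1a1, Vim and Thy1, summed to between 43300 and 90900 RPKM, while no endothelial and 1 of 6 epithelial markers exceeded this share. Macrophage and leukocyte markers were detected as well, 6 of 8 above it, and summed to 3260 RPKM untreated, 16400 at 1.5 hr, 3180 at 6 hr and 8050 at 24 hr, mostly Lyz2, with Cd3e listed at 0 throughout. As deposited, 4 of these 6 (Ptprc, Emr1, Cd14 and Lyz2) were at least 2-fold higher at 1.5 hr and 0 lower. At 6 hr 1 was higher and 2 lower, and at 24 hr 2 and 1. Shares of coding genes were 31.1% and 9.48%, 2.05% and 32.6%, and 17.1% and 14.0%. Median-scaled, 2 (Cd14 and Lyz2) were higher and 0 lower at 1.5 hr, and 1 (Cd14) and 0 at 6 hr. At 24 hr 2 (Cd14 and Lyz2) were higher and 2 (Cd68 and Csf1r) lower. The median-scaled shares of coding genes were 15.0% and 18.8%, 8.11% and 6.0%, and 13.4% and 16.9%. As deposited, log2 ratios at the 3 times were -0.04, -1.71 and -1.25 for Csf1r and 0.44, -1.58 and -0.96 for Cd68. Both were thus below untreated at 24 hr, where the sum was above it. The sum was highest at 1.5 hr, as were several members below, and its part in their values was not tested. In such bulk RNA, fewer cells of a type and less RNA per cell cannot be told apart.

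Bid was the one member of the 10 that was at least 2-fold higher than untreated at every time and under all 3 scalings. The promoters of Bid and Bbc3 are shown because Bid carried this difference and because Bbc3 was the one member with a match to the NF-κB motif in its promoter window. Each run holds the 250 bases before the annotated start in mm9, 5′ to 3′ on the strand of the gene, and capitals mark the bases of the motif match.
Bid, chr6:120866872-120867121, minus strand: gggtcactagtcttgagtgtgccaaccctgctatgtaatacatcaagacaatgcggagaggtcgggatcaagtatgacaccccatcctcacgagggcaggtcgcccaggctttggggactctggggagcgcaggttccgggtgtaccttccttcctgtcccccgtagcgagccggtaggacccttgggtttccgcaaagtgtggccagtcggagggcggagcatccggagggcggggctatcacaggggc
Bbc3, chr7:16894715-16894964, plus strand: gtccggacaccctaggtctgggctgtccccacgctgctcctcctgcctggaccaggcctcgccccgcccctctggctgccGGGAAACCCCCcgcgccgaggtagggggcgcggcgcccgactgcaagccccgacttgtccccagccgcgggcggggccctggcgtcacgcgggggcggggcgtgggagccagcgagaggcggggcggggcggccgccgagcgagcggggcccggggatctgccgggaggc
The capitals span 11 bases that hold 2 overlapping matches to the κB consensus, on opposite strands, which begin at -170 and -169 from the start. The κB consensus of 10 letters was searched on both strands from 250 bases before to 50 bases after the start. Of 11584 coding genes with such a window, 5.15% held a match. The other 9 members held none, which says only that these letters are not in this window.

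Bid, which carries the death receptor signal to mitochondria, lies on the minus strand at chr6:120841948-120866871. Its level was 46.4 RPKM untreated (R1 45.2, R2 47.6), 565 at 1.5 hr (R1 549, R2 582), 123 at 6 hr (R1 125, R2 121) and 311 at 24 hr (R1 304, R2 318). Every treated library was above the untreated one, and the columns of any pair of times did not overlap. The order from high to low was 1.5, 24, 6 and 0 hr, as deposited and median-scaled. Against untreated, Bid was 12.2-fold higher after 1.5 hr, 2.66-fold after 6 hr and 6.71-fold after 24 hr as deposited, and median-scaled it was 8.64-fold, 4.40-fold and 6.09-fold higher. GC-centred log2 ratios were 3.14, 2.25 and 2.64. Its transcript, with a GC content of 51.3%, is close to the middle of coding genes. Among coding genes its log2 ratio stood at percentile 99.6 at 1.5 hr, 98.8 at 6 hr and 99.3 at 24 hr, and its level went from percentile 32.5 in untreated cells to 83.4 at 1.5 hr.

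The untreated value of Bid is also its least precise. Low values in each column fall near whole multiples of 1 read per kilobase, from which roughly 118 reads per column were estimated for Bid in the untreated library and 1497 at 1.5 hr. These counts carry a counting error of 9.2% and 2.6%, which is far below the difference between the libraries but does not include variation between cultures. By a fixed rule of likeness, the smallest largest difference over the 3 log2 ratios, the coding genes closest to Bid over the 4 libraries were Ch25h (0.17), Med30 (0.29) and Birc3 (0.32), where the value is the largest difference in log2 ratio.

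**Figure D1:**
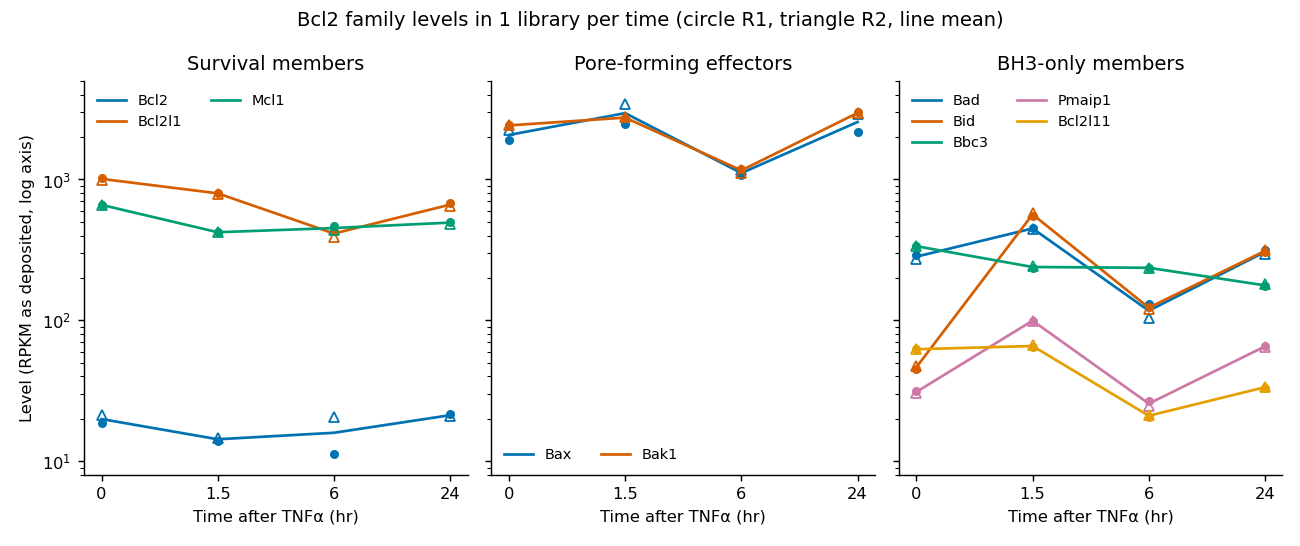
Level of each member in RPKM as deposited (log axis) against time after TNFα, in panels for survival, effector and BH3-only members, with R1 as circles, R2 as triangles and lines through their mean. Bid goes from 46.4 RPKM in the untreated library to 565 at 1.5 hr, while Bax and Bak1 stay the highest members in each library.

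Among the other BH3-only members, Pmaip1, a p53 target that binds Mcl1, was the only one at least 2-fold higher as deposited. Its level was 31.0 RPKM untreated (R1 31.4, R2 30.7), 99.4 at 1.5 hr (R1 99.3, R2 99.5), 25.6 at 6 hr (R1 26.7, R2 24.6) and 65.3 at 24 hr (R1 66.0, R2 64.6). The 1.5 and 24 hr libraries were high and, as deposited, the 6 hr library was the lowest, without overlap of the columns. It was 3.20-fold higher at 1.5 hr, 2.10-fold higher at 24 hr and at 0.826 times the untreated level at 6 hr. Median-scaled, it was 2.27-fold higher at 1.5 hr, 1.37-fold at 6 hr and 1.91-fold at 24 hr, so that the direction at 6 hr turned and the untreated library was the lowest. Pmaip1 is low in GC, at 41.8%, and GC-centred its log2 ratios were 0.42, -0.09 and 0.26, within 2-fold at all times. Roughly 63 reads per column were estimated for Pmaip1 at 6 hr, the fewest among the 10 members, with a counting error of 13%. The estimates took the longest annotated transcript of each gene. For Bcl2, with 2 transcripts listed, the one kept may be shorter, so its count may be overestimated.

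Bbc3, a p53 target that binds all survival members, was below untreated at every time as deposited. It lies at chr7:16894965-16903554 on the plus strand, and its level was 336 RPKM untreated (R1 335, R2 336), 239 at 1.5 hr (R1 235, R2 243), 236 at 6 hr (R1 236, R2 235) and 177 at 24 hr (R1 175, R2 180). The untreated library was highest, the 24 hr library lowest, and the columns at 1.5 and 6 hr overlapped. Log2 ratios were -0.49, -0.51 and -0.92 as deposited and -0.99, 0.22 and -1.06 median-scaled, so that the 24 hr value passed 2-fold only after scaling. The transcript has the highest GC content of the 10, 65.2%, and its GC-centred log2 ratios were 0.26, 0.40 and 0.08. Direction thus differed between the scalings at all 3 times.

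Bcl2l11, which binds all survival members and can activate Bax directly, lies at chr2:127951774-127988283 on the plus strand. Its level was 62.3 RPKM untreated (R1 62.2, R2 62.4), 65.7 at 1.5 hr (R1 64.4, R2 66.9), 21.0 at 6 hr (R1 20.7, R2 21.2) and 33.5 at 24 hr (R1 33.3, R2 33.6). The 6 and 24 hr libraries were low, and the columns did not overlap between times. Log2 ratios of -1.57 at 6 hr and -0.90 at 24 hr as deposited became -0.84 and -1.04 median-scaled and -0.93 and -1.33 GC-centred. At both of these times Bcl2l11 was thus below untreated under all 3 scalings, by less than 2-fold in 3 of the 6 values. At 1.5 hr its log2 ratio was 0.08 as deposited, -0.42 median-scaled and -0.74 GC-centred. The table lists 3 transcripts of the gene, and the other two gave -1.52 and -1.55 at 6 hr and -0.87 each at 24 hr.

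Bad, which binds Bcl2 and Bcl2l1 when it is not phosphorylated, lies at chr19:7016351-7026388 on the plus strand. Its level was 283 RPKM untreated (R1 291, R2 274), 449 at 1.5 hr (R1 454, R2 444), 117 at 6 hr (R1 130, R2 103) and 306 at 24 hr (R1 315, R2 297). The 1.5 hr library was highest and the 6 hr library lowest. Log2 ratios were 0.67, -1.28 and 0.12 as deposited, 0.17, -0.55 and -0.02 median-scaled, and 1.42, -0.36 and 1.12 GC-centred, for a transcript of 61.3% GC. Bad was at least 2-fold higher at 1.5 and 24 hr only when set against genes of like GC content, and at least 2-fold lower at 6 hr only as deposited.

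The effectors were the most abundant members in all 4 libraries. Bax, at chr7:52717065-52722268 on the minus strand, had a level of 2070 RPKM untreated (R1 1910, R2 2240), 2960 at 1.5 hr (R1 2480, R2 3430), 1110 at 6 hr (R1 1070, R2 1160) and 2560 at 24 hr (R1 2190, R2 2940). As deposited, only the 6 hr library stood apart, since the columns at 1.5 and 24 hr overlapped and so did those at 24 and 0 hr. Median-scaled, the columns at 0 and 6 hr overlapped as well. R2 exceeded R1 for Bax in every library, by 32% of their mean at 1.5 hr. Log2 ratios were 0.51, -0.90 and 0.31 as deposited and 0.02, -0.17 and 0.17 median-scaled. GC-centred values for this transcript of 62.6% GC were 1.26, 0.02 and 1.31.

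Bak1, at chr17:27156755-27165954 on the minus strand, had a level of 2420 RPKM untreated (2420 in both columns), 2750 at 1.5 hr (R1 2720, R2 2780), 1160 at 6 hr (R1 1190, R2 1120) and 2970 at 24 hr (R1 2990, R2 2960). As with Bax, the 6 hr library was the low one as deposited, while median-scaled its columns overlapped those at 1.5 hr. Log2 ratios were 0.18, -1.07 and 0.30 as deposited, -0.31, -0.34 and 0.16 median-scaled, and 0.39, -0.16 and 0.77 GC-centred. The ratio of Bax to Bak1 within a library was 0.856 untreated, 1.07 at 1.5 hr, 0.961 at 6 hr and 0.862 at 24 hr, and its column values overlapped between all times.

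The survival members were all below untreated at 1.5 hr under each of the 3 scalings. Mcl1, a short-lived survival protein, lies at chr3:95462643-95467099 on the plus strand and had a level of 660 RPKM untreated (R1 663, R2 656), 422 at 1.5 hr (R1 421, R2 423), 452 at 6 hr (R1 469, R2 436) and 494 at 24 hr (R1 503, R2 486). The untreated library was highest and the 1.5 hr library lowest, without overlap. Log2 ratios were -0.65, -0.55 and -0.42 as deposited, -1.14, 0.18 and -0.56 median-scaled, and -1.27, 0.17 and -0.70 GC-centred. Mcl1 was therefore at least 2-fold lower at 1.5 hr after either correction but not as deposited, and its direction at 6 hr depended on the scaling.

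Bcl2l1, the most abundant survival member in the untreated library, lies at chr2:152593052-152657464 on the minus strand. Its level was 1010 RPKM untreated (R1 1030, R2 989), 797 at 1.5 hr (R1 801, R2 792), 413 at 6 hr (R1 434, R2 391) and 663 at 24 hr (R1 678, R2 648). All treated libraries were below the untreated one, with no overlap of columns. Log2 ratios were -0.34, -1.29 and -0.60 as deposited, -0.83, -0.56 and -0.74 median-scaled, and -0.28, -0.32 and -0.24 GC-centred. Bcl2l1 was the one member below untreated in all 9 of these values.

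Bcl2, the founding survival gene of the family, was the lowest of the 10 in every library. It lies at chr1:108434755-108610851 on the minus strand and had a level of 19.9 RPKM untreated (R1 18.7, R2 21.1), 14.3 at 1.5 hr (R1 13.9, R2 14.7), 15.9 at 6 hr (R1 11.2, R2 20.6) and 21.2 at 24 hr (R1 21.6, R2 20.8). The columns at 6 hr were 59% of their mean apart, and neighbouring times in the order of levels overlapped. Log2 ratios were -0.48, -0.32 and 0.09 as deposited, -0.97, 0.41 and -0.05 median-scaled, and -1.38, 0.25 and -0.37 GC-centred, so that 1.5 hr was the only time with 1 direction throughout. The other listed transcript of Bcl2, lower in level, gave -0.26, -0.01 and 0.22 as deposited.

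**Figure D2:**
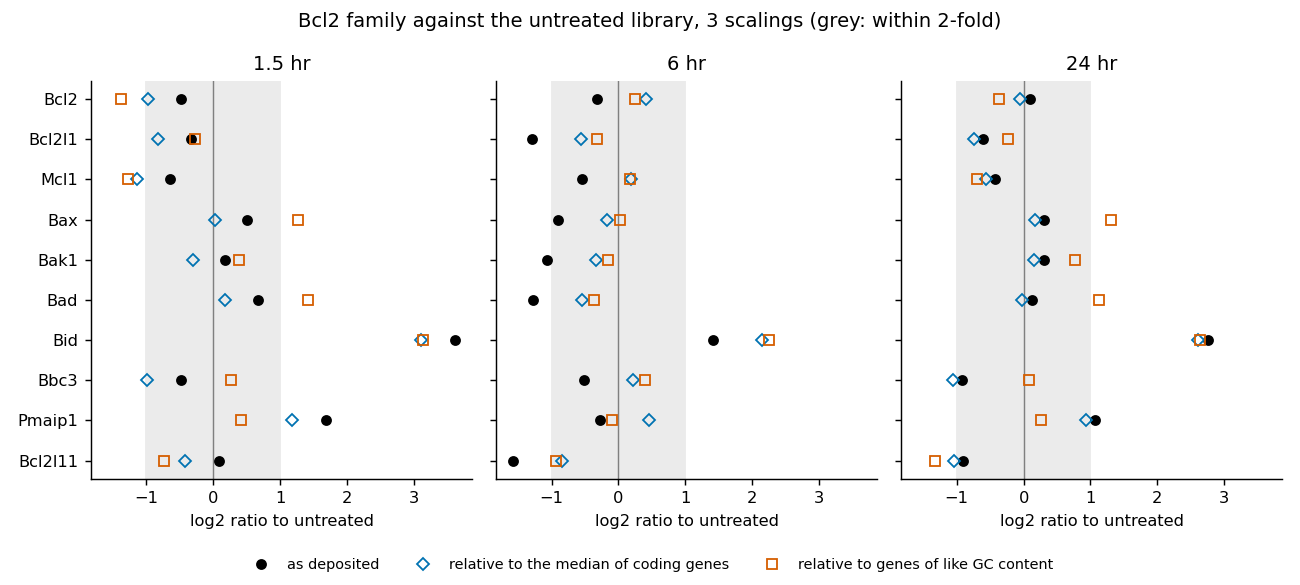
Log2 ratio of each member to the untreated library at 1.5, 6 and 24 hr, as deposited (circles), median-scaled (diamonds) and GC-centred (squares), with the grey band covering differences within 2-fold. Bid lies beyond the band at all times under each scaling, from 1.41 to 3.61.

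Counted together at 1.5 hr as deposited, 2 of the 10 members (Bid and Pmaip1) were at least 2-fold higher and 0 were at least 2-fold lower, where 31.1% and 9.48% of coding genes were. Median-scaled, Bid and Pmaip1 were higher and Mcl1 was lower, against 15.0% and 18.8% of coding genes. GC-centred, Bid, Bax and Bad were higher and Bcl2 and Mcl1 lower, against 11.0% and 12.1%. The median log2 ratio of the members was 0.13, beside 0.50 for coding genes.

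At 6 hr as deposited, 1 member (Bid) was at least 2-fold higher and 4 (Bcl2l1, Bak1, Bad and Bcl2l11) were at least 2-fold lower, beside 2.05% and 32.6% of coding genes. Median-scaled, 0 members were at least 2-fold lower and Bid alone was higher, with Bcl2l11 the lowest of the 10 at a log2 ratio of -0.84, beside 6.0% and 8.11% of coding genes. GC-centred counts were the same, 1 higher and 0 lower, beside 5.9% and 5.12%. The members' median of -0.72 was close to the -0.73 of coding genes.

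At 24 hr as deposited, 2 members (Bid and Pmaip1) were at least 2-fold higher and 0 lower, beside 17.1% and 14.0% of coding genes. Median-scaled, Bid was higher and Bbc3 and Bcl2l11 were lower, beside 13.4% and 16.9%. GC-centred, Bid, Bax and Bad were higher and Bcl2l11 was lower, beside 10.8% and 10.5%. The members' median was 0.10, beside 0.14 for coding genes. As deposited, all members counted passed 2-fold in both columns.

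**Figure D3:**
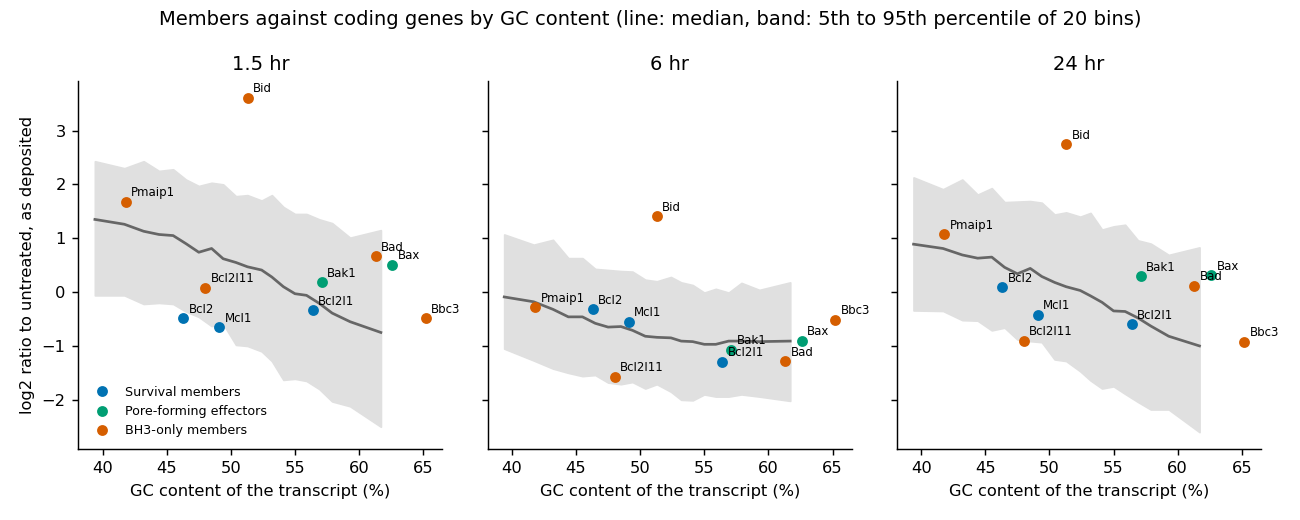
Log2 ratio to untreated as deposited against the GC content of the transcript (%), with members as points coloured by role and coding genes in 20 bins as a line (median) and band (5th to 95th percentile). Pmaip1 at 41.8% GC lies near the line, Bid lies above the band at all times, and Bax, Bad and Bbc3 are at the GC-rich end where the line is low.

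Ratios between members within 1 library do not depend on how libraries are scaled, although they still depend on the GC content of the genes compared. Bid stood at 0.046 of the level of Bcl2l1 when untreated, 0.709 at 1.5 hr, 0.298 at 6 hr and 0.469 at 24 hr. Against Bak1, which its cleaved form activates, the ratio of Bid was 0.0191, 0.205, 0.106 and 0.105 in the same order. Both ratios were above untreated in all treated libraries and in each column.

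The ratio of Pmaip1 to its partner Mcl1 was 0.0471 untreated, 0.236 at 1.5 hr, 0.0567 at 6 hr and 0.132 at 24 hr, for genes that differ in GC content, 41.8% against 49.1%. For Bcl2l11 and Mcl1, which are closer in GC content, the ratio was 0.0945, 0.156, 0.0463 and 0.0677, above untreated at 1.5 hr and below it at the later times. Mcl1 relative to Bcl2l1 was 0.655, 0.529, 1.10 and 0.746, so that 6 hr was the only library with more Mcl1 than Bcl2l1.

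Summed by role, Bax and Bak1 together stood at 2.66 times the survival members before treatment, 4.63 times at 1.5 hr, 2.58 times after 6 hr, and 4.70 times at 24 hr. The 1.5 and 24 hr libraries were high and close to each other, and the untreated and 6 hr libraries overlapped in their columns. The 5 BH3-only members together stood at 0.449, 1.15, 0.593 and 0.758 of the survival members. Their sum went from 758 RPKM untreated to 1420 at 1.5 hr, but not evenly. Bid had the largest rise, from 46.4 to 565, beside 283 to 449 for Bad, 31.0 to 99.4 for Pmaip1 and 62.3 to 65.7 for Bcl2l11. Bbc3 went down, from 336 to 239. The ratio is thus not a shift shared by all BH3-only members, and it was not computed without Bid. Because the effectors are richer in GC than Mcl1 and Bcl2, these sums are not free of the relation with GC content.

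**Figure D4:**
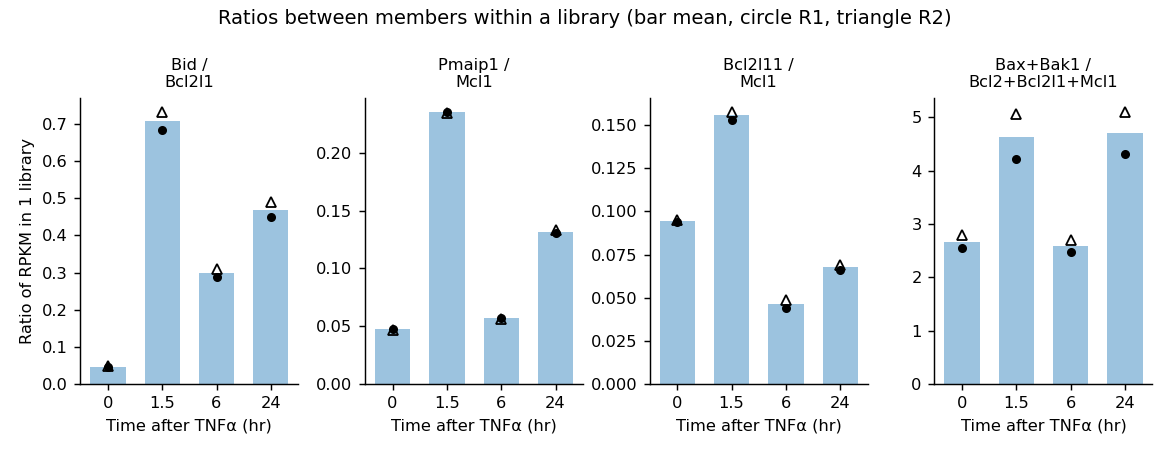
Ratios of RPKM between members within a library at 0, 1.5, 6 and 24 hr, with bars from the mean of R1 and R2 and points for R1 (circles) and R2 (triangles). Bid over Bcl2l1 goes from 0.046 to 0.709 at 1.5 hr, and the effectors over the survival members from 2.66 to 4.63.

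The starts of all 10 members lay within 1000 bp of an H3K4me3 peak in untreated MEFs, as did 82.2% of coding genes. Each of the 10 peaks also covered the start itself. A peak is a stretch of the genome where ChIP reads (tags) pile up over the input, and the median peak of the 11157 in the file held 1049 tags over 3187 bp with a fold enrichment of 45.5. Bid, low in untreated cells, had a peak of 863 tags over 2656 bp with a fold enrichment of 37.41, at percentile 37.0 of all peaks by tags. Pmaip1 had the fewest tags of the members, 728, at a fold enrichment of 88.81, the highest of the 10.

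Peaks with the most tags were those of Bax (3507), Bbc3 (3414), Mcl1 (2908), Bcl2l1 (2719) and Bcl2l11 (2567), followed by Bad (1908), Bak1 (1229) and Bcl2 (1131). The peak at Bax, however, ran over 11203 bp, past the far end of the gene, and also covered the start of Ftl1, with its summit 8031 bp downstream of the Bax start, so its tags do not belong to Bax alone. Likewise the peaks at Bak1 and Bad each covered the start of a neighbour, Ggnbp1 and Gpr137. Bcl2, the lowest member in RNA, had a peak over 3974 bp that extended from -1015 to 2958 bp from the start. The mark was not profiled after TNFα.

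**Figure D5:**
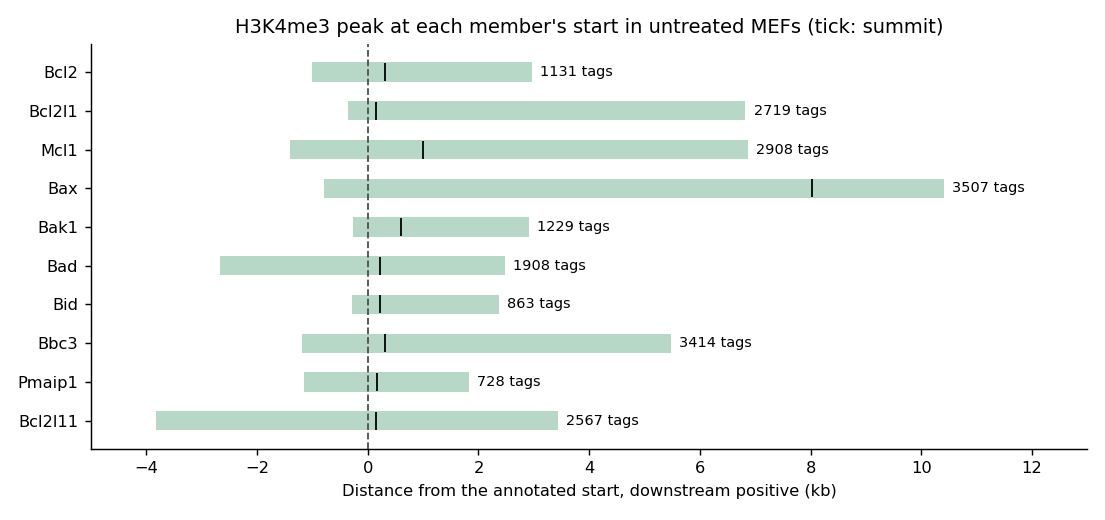
Extent of the H3K4me3 peak at each member in untreated MEFs by distance from the annotated start (kb, downstream positive), with a tick at the summit and the number of tags at the right. All 10 peaks span the start, and the peak at Bax has its summit 8031 bp downstream.

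Among 14 further relatives of the family, 10 passed the filter on low values. As deposited, 5 were at least 2-fold higher and 1 lower at 1.5 hr, 0 and 2 at 6 hr, and 6 and 1 at 24 hr, beside 31.1% and 9.48%, 2.05% and 32.6%, and 17.1% and 14.0% of coding genes. Median-scaled, 3 were higher and 1 lower at 1.5 hr, 3 and 1 at 6 hr, and 5 and 1 after 24 hr. The matching shares of coding genes were 15.0% and 18.8%, 8.11% and 6.0%, and 13.4% and 16.9%. Bmf, a BH3-only gene, was lower at each time, joined at 6 hr by Bok, a relative of Bax, whose log2 ratio there was -1.54 as deposited and -0.81 median-scaled. The median log2 ratio of these relatives was 1.02, -0.32 and 1.13, beside 0.50, -0.73 and 0.14 for coding genes. The related lists were scaled to the median but not centred by GC content. The survival genes Bcl2a1a, Bcl2a1b and Bcl2a1d had log2 ratios at 1.5 hr of 2.99, 2.75 and 2.85, but they are near-identical copies whose reads cannot be assigned with certainty. Median-scaled, these copies were the only relatives counted as higher at 1.5 and 6 hr, and 3 of the 5 at 24 hr. As deposited, they were among the 5 at 1.5 hr and the 6 at 24 hr. The counts and medians of the relatives thus enter near-identical copies as separate genes. The 6 hr values of these copies were 0.40, 0.70 and 0.37 as deposited and 1.13, 1.43 and 1.10 median-scaled.

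Downstream of the pores, 7 of 12 genes of the caspases and their activation were at least 2-fold higher at 1.5 hr, followed by 1 at 6 hr and by 3 after 24 hr, and 0, 2 and 0 were lower, beside the same shares of coding genes. Cycs, which encodes the cytochrome c released through the pores, had log2 ratios as deposited of 2.85, 1.05 and 2.60. Median-scaled, its values were 2.35, 1.78 and 2.46. The median-scaled counts were 3 higher and 1 lower (Endog) at 1.5 hr, 3 and 0 at 6 hr, and 3 and 1 (Endog) after 24 hr, with Cycs among the higher genes each time. Median-scaled shares of coding genes were 15.0%, 8.11% and 13.4% higher and 18.8%, 6.0% and 16.9% lower at the 3 times. The medians of this list were 1.04, -0.57 and 0.60 as deposited, beside 0.50, -0.73 and 0.14 for coding genes. On the side of the receptors and the inhibitors of apoptosis, 6 of 12 genes were at least 2-fold higher at 1.5 hr, and 2 and 3 at the later times, with 0, 3 and 0 lower, where 31.1%, 2.05% and 17.1% of coding genes were higher and 9.48%, 32.6% and 14.0% lower. Median-scaled, 3 (Fas, Birc2 and Birc3) were higher at 1.5 and at 6 hr, 2 (Fas and Birc3) were at 24 hr, and 0 were lower. These counts stand beside the median-scaled shares of coding genes given above. Fas, a death receptor above Bid, had log2 ratios of 4.33, 2.44 and 2.72, and the ubiquitin ligase genes Birc3 and Birc2 had 3.30, 1.32 and 2.43, and 2.25, 0.56 and 1.08, as deposited. Their median-scaled values were 3.83, 3.17 and 2.58 for Fas, 2.80, 2.05 and 2.29 for Birc3, and 1.75, 1.29 and 0.94 for Birc2. Over the 12 genes the medians were 1.03, -0.47 and 0.58 as deposited. Of 5 genes on the p53 side, 2 (Trp53 and Trp53inp1) were at least 2-fold higher at 1.5 hr, beside 31.1% of coding genes. After median scaling 0 were, beside 15.0%. At 6 hr 1 (Sesn2) was lower as deposited, beside 32.6% of coding genes. Its log2 ratio there was -1.07 as deposited and -0.34 median-scaled. Median-scaled, 1 (Trp53, 1.16) was higher at 6 hr and 0 lower, beside 8.11% and 6.0%. At 24 hr 1 (Trp53) was higher under both scalings, beside 17.1% as deposited and 13.4% median-scaled. As deposited, the medians were 0.65, -0.31 and 0.52, beside 0.50, -0.73 and 0.14 for coding genes.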

How the data were processed

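RNA of 4 libraries (untreated and 1.5, 6 and 24 hr of TNFα) and 1 H3K4me3 ChIP library with 1 input library were used. The authors mapped RNA reads to mm9 with TopHat and deposited RPKM values per RefSeq transcript, on a scale of their own, in 8 columns (R1 and R2 of each library). All were matched to libraries through the study's list of library names. ChIP reads were mapped by the authors with Bowtie and their peaks called by MACS, and the deposited peak list gives tag counts, a score (-10 times log10 of the p), a fold enrichment (a ratio, none under 20) and an FDR in percent. The version of the annotation and the treatment of reads with several matches are not given in the sources used here. Depth was estimated from the steps of low values, of which 64.9% to 71.4% lay within 3% of a whole multiple. The estimate took the longest GENCODE coding transcript of each gene, which need not be the transcript kept. It is approximate and covers counting error only.

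R1 and R2 were averaged, and log2 ratios were taken to the untreated library with no pseudocount. The filter, a mean share above 1 in 1000000 of the table, was chosen here because of the scale of the values and differs from the filter of the study, whose 2-fold threshold was used. With 1 library per time, no test was made. Scaling used the median of ratios over coding genes, and GC content (of the longest GENCODE coding transcript, found for 98.0% of coding genes) was centred in 20 bins, an alternative added after seeing the data. Starts, sequences and positions came from the mm9 genome and its GENCODE annotation. The coding genes with a start numbered 11584. The named genes were all 10 members, up to 8 genes of 4 related lists with the largest log2 ratio past 2-fold in both columns, and the 3 genes most like the member with the largest log2 ratio. Bmf, Bok, Sesn2, Endog, Trp53, Trp53inp1 and the markers fall outside this rule and were named after their values were seen. A few genes of these lists are not reported here. Members and lists were chosen with earlier results of these data known. Scripts were tested on simulated data and used Python 3.11.15, numpy 2.4.6, pandas 2.3.3 and matplotlib 3.10.9.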

Additional observations from a re-analysis of the deposited data

Results flagged for a closer look

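For Bax, Bak1 and Bad, both columns and the median-scaled value lay on one side of the untreated library at one time and on the opposite side at another, and the difference between the times was not tested. The log2 ratio of Bax was 0.51 at 1.5 hr and -0.90 at 6 hr (median-scaled 0.02 and -0.17), and 0.31 at 24 hr (median-scaled 0.17). For Bax the change of side depended on the scaling, since its GC-centred values were 1.26, 0.02 and 1.31, none below untreated. Its median-scaled columns also overlapped between neighbouring times in the order of levels. Bak1 had -1.07 at 6 hr and 0.30 at 24 hr (median-scaled -0.34 and 0.16, GC-centred -0.16 and 0.77). For Bad the values were 0.67 at 1.5 hr and -1.28 at 6 hr (median-scaled 0.17 and -0.55, GC-centred 1.42 and -0.36). Each of these comparisons includes the 6 hr library, whose sum of values was 0.563 times that of the untreated library.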

How the results depend on the processing

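The median log2 ratio of the members moved with the scaling of the libraries. At 1.5 hr it was 0.13 as deposited, -0.37 by the median of ratios, -0.12 by the sum, -0.36 by a trimmed mean and 0.33 centred by GC content. At 6 hr it was 0.01, 0.11, 0.0 and -0.04 in that order, against -0.72 as deposited. At 24 hr it was -0.04 by the median of ratios, -0.03 by the trimmed mean and 0.17 by GC content, against 0.10. The number of members past 2-fold went from 2 to 5 at 1.5 hr and from 2 to 4 at 24 hr by GC content, and from 5 to 1 at 6 hr by each of these 4 alternatives. Lowering the threshold to 1.5-fold put 4 members past it in the 1.5 hr library as deposited. The count was 6 for the 6 hr library and 5 for the one of 24 hr. No share of coding genes past 1.5-fold was computed, so these counts cannot be set against a background. With a fold enrichment of at least 40, 5 members had a peak, beside 54.6% of coding genes. Of 30 single log2 ratios, the sign changed in 8 by the median of ratios, 6 by the sum, 8 by the trimmed mean, 8 by GC content and 1 in the R2 columns alone, and in 0 in the R1 columns alone, with a pseudocount or with the mean over all transcripts of a gene. No sign change concerned a value past 2-fold as deposited. The cause of the GC relation and of the low 6 hr library was not tested. No paired analysis was possible because each time had 1 library.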
